A study of Mus musculus with 16 samples.

Results

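Chemokines are small secreted proteins that draw leukocytes along a concentration gradient. Here 10 of them are described in the mouse striatum, in the RNA bound to astrocyte ribosomes and in the RNA of the whole tissue lysate. They were chosen by name as CC and CXC chemokines, 4 of the CXC family (Cxcl5, Cxcl9, Cxcl12 and Cxcl14) and 6 of the CC family (Ccl2, Ccl3, Ccl4, Ccl5, Ccl6 and Ccl9), and all 10 of 10 were found among the 20730 genes measured. The tissue came from 8 adult C57BL/6N mice that had all received RiboTag AAV, a virus that makes astrocytes produce the ribosomal protein Rpl22 with a hemagglutinin tag. A second AAV encoded a control protein in 4 mice (control mice) or hPMCA2w/b, a human plasma membrane calcium pump that suppresses calcium signals, in the other 4 (PMCA mice). Each mouse gave a library of its cleared lysate (input) and a library of the RNA precipitated through the tag (IP), so there were 4 groups of 4 libraries. The sources used here do not give the promoter that restricts either virus to astrocytes, the time after injection or an age beyond adult. Animal numbers fall into a lower set (control 1 to 3, PMCA 1 and 2) and a higher set (control 4, PMCA 3 and 4). The title and the source name of control 4 give different animal numbers, and by the source name it would belong to the lower set, which would leave the higher set without a control mouse. Xist, an RNA made from the inactive X chromosome of female cells, was high in control 4 and PMCA 3.

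The families differ in the spacing of the first conserved cysteines, and each chemokine acts through G-protein-coupled receptors on the cells it attracts. In brain tissue, microglia, perivascular macrophages, infiltrating T cells and endothelial cells make chemokines as well as astrocytes do. Several of these genes, Cxcl9, Ccl2 and Ccl5 among them, are classical targets of interferon-gamma or of tumour necrosis factor and interleukin-1 acting in part through NF-kB, while Cxcl12 and Cxcl14 are made constitutively in many tissues.

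Inputs held 32.3 to 40.9 M reads and IP libraries 46.8 to 58.5 M, so 1 read is worth 0.0188 to 0.0280 CPM, the reads of a gene scaled to a common library size. Values are on the deposited log2 CPM scale, on which a gene with 0 reads sits at -7.47 in every library, and a difference between groups is a log2 fold on that scale. All 10 of 10 astrocyte markers were higher in control IP than in control input (median log2 fold 3.30), and all 12 of 12 microglia markers were lower (median -5.54), as were 9 of 9 tested T cell and NK cell markers, 8 of 8 endothelial markers and 7 of 7 tested macrophage and monocyte markers. Some of these, such as Cd3d with 0 to 4 reads in control IP, had enough reads for the test only in input. A call of higher in IP was not open to them. Of 8 ependymal and choroid plexus markers, 5 were higher in control IP and 2 lower. Oligodendrocyte markers were not depleted as a list, with 3 of 8 higher and 1 lower (median 0.21). Of 10 neuron markers, 7 were lower and 1 higher (median -0.54). Of 8 leptomeningeal markers, 5 were lower and 3 higher, and of 8 mural markers 6 were lower and 2 higher. Among all 16072 genes tested between these fractions, 39.1% passed as higher and 38.4% as lower. Markers of other cell types thus remained in the IP libraries. RNA counted for Rpl22, the gene of the tagged protein, was at 9.80 ± 0.15 in the control precipitates and at 8.11 ± 0.11 in those of PMCA mice (log2 CPM, SD, n = 4). In input it was at 7.60 ± 0.14 and 6.715 ± 0.086. These values do not separate the tagged copy from the mouse gene, and they do not measure protein. An effect of the pump and one of a lower level of the tag, if this RNA reflects it, cannot be told apart in any comparison of treatments. In tissue samples, fewer cells of a type and less RNA per cell cannot be told apart either.

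The chemokines differed in their level in IP relative to input, which does not measure the share of their RNA on astrocyte ribosomes. In control mice Cxcl14, Cxcl5, Ccl2 and Cxcl9 were higher in IP than in input, and Cxcl12, Ccl5, Ccl4, Ccl6, Ccl3 and Ccl9 were lower. Between treatments, Cxcl5 and Cxcl9 were 3.12-fold and 3.58-fold lower in the IP of PMCA mice. Ccl3 and Ccl4 were 2.93-fold and 2.27-fold higher in their input. The remaining members showed no treatment difference that passed the test in either fraction. Marker lists moved in the same comparisons: 6 of 10 neuron markers were lower and 4 of 10 astrocyte markers higher in PMCA IP, with median log2 folds of -0.47 and 0.42, and 2 of 10 astrocyte markers were higher in PMCA input. Over all genes tested, 1585 of 15748 passed as lower and 1503 as higher in IP, and 59 of 16306 as higher in input. For the difference of the treatment effect between the fractions, 3 of 10 neuron markers passed as lower and 0 of 10 astrocyte markers passed, where 177 of 16673 genes passed as lower and 162 as higher. Summed astrocyte markers were 31339 to 41256 CPM in control IP and 43191 to 50664 CPM in PMCA IP, and summed neuron markers 3011 to 4122 CPM and 2509 to 2847 CPM. No marker of either list was at 0, and their part in the chemokine values was not tested.

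These counts stand against a large background in some comparisons and a small one in others. In IP, 6 of the 10 members had enough reads to be tested for a treatment effect. Of the 6, 2 passed at an adjusted p under 0.05, both lower (limma, adjusted over all genes tested). Among all 15748 genes tested, 19.6% passed, 10.1% passed as lower and 1503 genes passed as higher. The 4 others, Ccl3, Ccl4, Ccl6 and Ccl9, had at most 17 reads in any IP library and are described by their reads. In input all 10 were tested and 2 passed, both higher, against 0.442% of 16306 genes in either direction and 0.362% as higher. The median treatment effect over the tested members was -0.06 in IP and 0.11 in input, beside -0.01 over all genes tested in each.

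**Figure D1:**
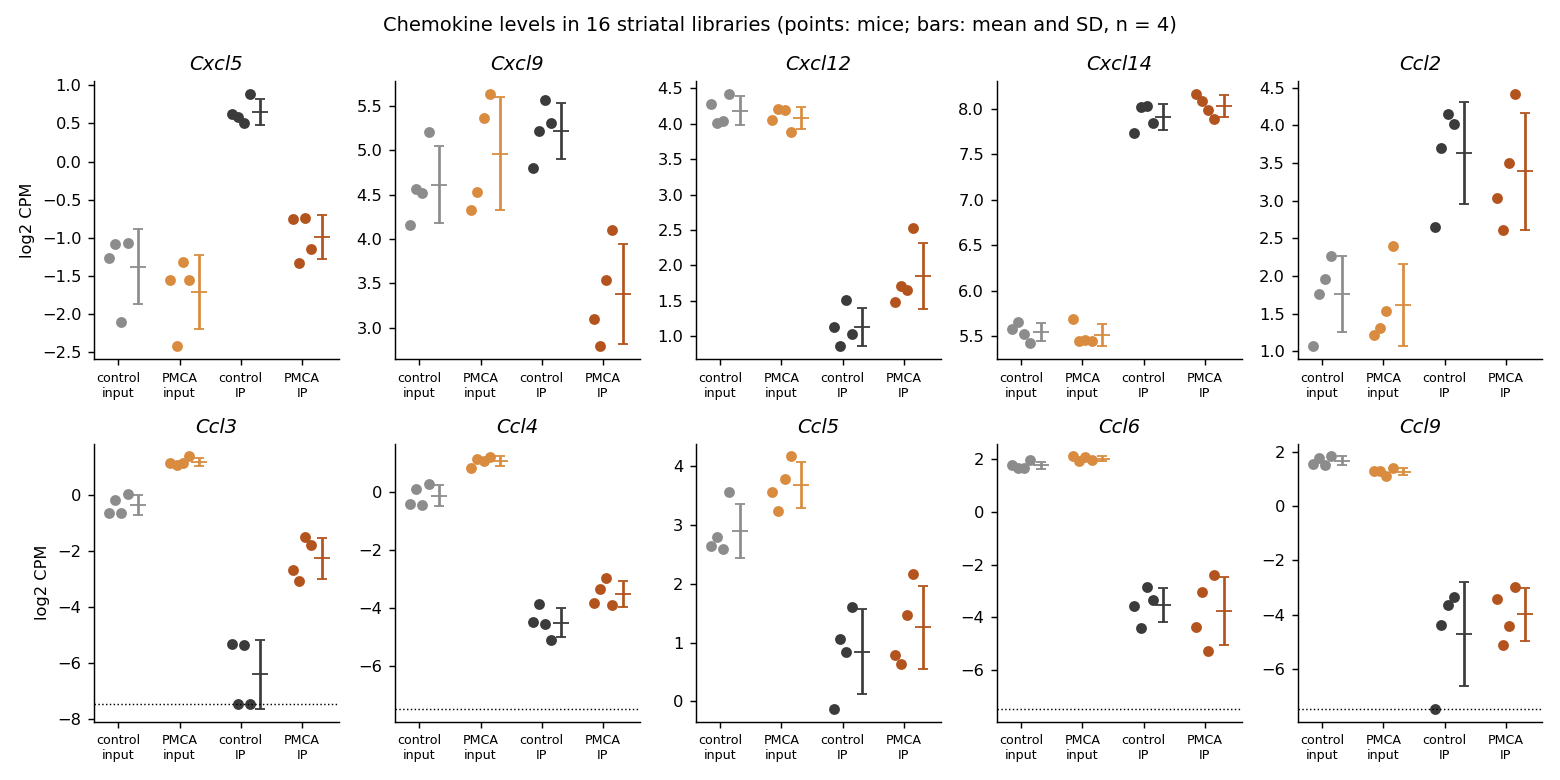
Level of each chemokine in the 16 libraries, in log2 CPM, with points for mice and bars for the mean and SD of the 4 mice of a group; the axes differ between genes. The dotted line marks -7.47, the value of 0 reads, which Ccl3 reached in 2 control IP libraries and Ccl9 in 1.

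Cxcl9 attracts activated T cells through Cxcr3 and is a classical interferon-gamma target. In control IP it stood at 27.9, 37.0, 47.2 and 39.5 CPM in mice 1 to 4, and in PMCA IP at 8.54, 6.91, 11.6 and 17.1 CPM. No PMCA library reached the lowest control library. The means were 5.22 ± 0.32 and 3.38 ± 0.57 log2 CPM (SD, n = 4), a log2 fold of -1.84 (SE 0.26, 95% interval -2.41 to -1.27, adjusted p = 0.00290). In the lysate of the same animals the gene did not follow the treatment in this way. Control inputs held 17.8, 23.7, 23.0 and 36.9 CPM and PMCA inputs 19.98, 23.0, 41.1 and 49.7 CPM. These ranges overlap, and the log2 fold was 0.35 (SE 0.28, 95% interval -0.28 to 0.97, adjusted p = 0.526).

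Cxcl9 was the member whose mean difference between IP and input changed sign between treatments. Taken mouse by mouse, IP minus input was 0.65, 0.64, 1.04 and 0.10 log2 in control mice and -1.23, -1.73, -1.83 and -1.54 in PMCA mice. On the deposited scaling, every control mouse thus had more Cxcl9 in its precipitate than in its lysate, and every PMCA mouse had less. On total reads control 4 fell to -0.18, the other 3 control mice stayed above 0 and the 4 PMCA mice below it. The difference of the treatment effect between the fractions was -2.19 (SE 0.43, 95% interval -3.10 to -1.28, adjusted p = 0.0192). It was the only such difference among the 10 members, where 2.03% of 16673 genes passed. The call was lost without control 2 (adjusted p = 0.0841), control 3 (0.0638), PMCA 2 (0.0604) or PMCA 3 (0.0703), and without both mice of high Xist (0.0864). The value stayed between -2.36 and -2.05. The main fit and the fits that left out mice had no term for the animal. With all mice and the animal as a block the adjusted p was 0.000262.

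**Figure D2:**
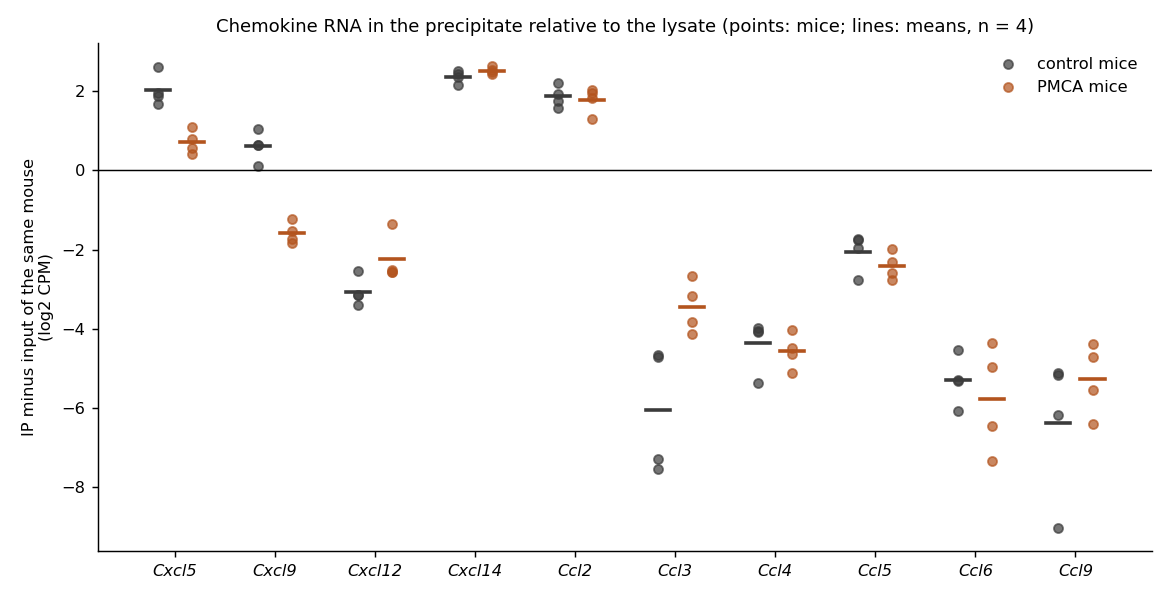
IP minus input of the same mouse, in log2 CPM, for each chemokine, with points for mice and lines for the means of 4 control and 4 PMCA mice. On the deposited scaling Cxcl9 lies above 0 in the 4 control mice (control 4 at 0.10, and below 0 on total reads) and below 0 in the 4 PMCA mice, and the other members keep their side of 0 in both treatments.

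From highest to lowest mean, the Cxcl9 levels were those of control IP, PMCA input, control input and PMCA IP; the first 3 overlapped and PMCA IP lay below every other library. The control IP mean exceeded the control input mean by 0.61 (SE 0.21, adjusted p = 0.0206), and the libraries of these groups overlapped. This smaller difference was lost when the libraries were scaled to total reads (0.33, adjusted p = 0.165), with no filter on low genes (adjusted p = 0.0694) and without control 2 (0.0752) or control 3 (0.118). In PMCA mice IP lay below input by a log2 fold of -1.58 (SE 0.33, adjusted p = 0.00142), with no overlap. Receptor Cxcr3 had 30 to 179 reads in an input library and 1 to 9 in an IP library.

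Cxcl10 and Cxcl11 are the other ligands of Cxcr3 and lie beside Cxcl9 in the genome; they are named here for that relation, after their values were seen. Cxcl10 was 2.52 log2 (SE 0.24, adjusted p = 3.16e-06) higher in control IP than in control input, and its treatment effect in IP was -0.41 (SE 0.27, adjusted p = 0.311). Cxcl11 had a treatment effect of -0.34 in IP (SE 0.49, adjusted p = 0.666). Neither passed the test between treatments. Whether either effect differed from that of Cxcl9 was not tested.

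The 250 bases before the transcript start of Cxcl9 are shown because this member fell in IP, and those of Ccl3 because it is the member with the largest rise in input; both come from RefSeq (GRCm38.p6), which holds an entry for 6 of the 10 members in the table used. They run 5′ to 3′ on the minus strand, from chr5:92328080-92328329 for Cxcl9 and chr11:83649379-83649628 for Ccl3. Capitals mark matches to the 9-base kB motif GGNNNTTCC, which was chosen after the sequences had been seen.
Cxcl9: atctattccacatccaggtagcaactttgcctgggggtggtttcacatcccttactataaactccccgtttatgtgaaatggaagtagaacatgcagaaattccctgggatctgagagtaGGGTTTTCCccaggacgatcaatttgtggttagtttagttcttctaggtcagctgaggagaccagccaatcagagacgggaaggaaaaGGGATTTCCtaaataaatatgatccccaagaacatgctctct
Ccl3: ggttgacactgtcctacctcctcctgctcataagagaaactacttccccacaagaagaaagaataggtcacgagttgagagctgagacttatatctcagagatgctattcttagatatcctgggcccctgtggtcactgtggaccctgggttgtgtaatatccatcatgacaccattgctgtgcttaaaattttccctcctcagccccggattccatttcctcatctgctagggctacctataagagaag
The Cxcl9 window holds this motif at 130 and at 42 bases before the start, and the Ccl3 window does not hold it. The NF-kB consensus and the interferon-stimulated element, which is GAAA repeated after a gap of 2 bases, were also searched on both strands, and neither is in the Cxcl9 or the Ccl3 window. Among 32536 mouse promoter windows of the same length, 15.7% hold GGNNNTTCC, 7.28% the NF-kB consensus and 2.98% the interferon-stimulated element. Cxcl14 has 1 match to the interferon-stimulated element, Ccl9 has an NF-kB match that overlaps a match to GGNNNTTCC, and the Cxcl12 and Ccl6 windows have no match to these 3 motifs.

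Cxcl5 attracts neutrophils through Cxcr2. It had 78, 71, 75 and 79 reads in control IP and 27, 17, 29 and 22 reads in PMCA IP, or 1.41 to 1.85 against 0.393 to 0.592 CPM. The control mice were close together and all 4 PMCA libraries lay well below them. The log2 fold was -1.64 (SE 0.21, 95% interval -2.10 to -1.18, adjusted p = 0.00231). In the lysate the gene was scarce, with 10 to 21 reads in control inputs and 8 to 18 in PMCA inputs, and these overlapped (log2 fold -0.33, SE 0.36, adjusted p = 0.655). The difference between the fractions was -1.31 (SE 0.41) and did not pass (adjusted p = 0.115), so the fall was not shown to be particular to IP.

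Cxcl5 was on the precipitate side in control mice, 4.08-fold higher in IP than in input (log2 fold 2.03, SE 0.27, adjusted p = 4.22e-05), with IP minus input between 1.67 and 2.61 in the 4 mice. In PMCA mice the same difference was 0.72 (SE 0.32), from 0.41 to 1.10, and missed the threshold (adjusted p = 0.0650). The highest group was therefore control IP, and PMCA IP, control input and PMCA input followed with overlapping libraries. Cxcr2, the receptor of Cxcl5, had at most 2 reads in any library, and the 7 neutrophil markers in the files summed to at most 0.587 CPM in every library. Cxcl1, another neutrophil-attracting ligand of that receptor, also fell in IP (log2 fold -1.59, SE 0.48, adjusted p = 0.0424), from 15 to 75 reads in control IP to 7 to 18 in PMCA IP. It would not have met the filter on low reads without control IP. Cxcl2 and Cxcl3, its close relatives, had at most 7 reads in any library and were not tested.

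Cxcl14, a constitutively made chemokine of epithelia and brain, was the member with the most even levels. Its IP libraries stood at 213, 260, 262 and 230 CPM in control mice and 287, 271, 253 and 236 CPM in PMCA mice. Its inputs stood at 47.8, 50.4, 46.3 and 43.0 CPM and at 51.8, 43.5, 44.1 and 43.6 CPM. IP was 5.13-fold above input in control mice (log2 fold 2.36, SE 0.078, adjusted p = 1.31e-09) and 5.72-fold above it in PMCA mice (2.52, SE 0.077, adjusted p = 7.58e-10), with no overlap in either. Between treatments the log2 fold was 0.12 in IP (95% interval -0.08 to 0.32, adjusted p = 0.363) and -0.04 in input (95% interval -0.19 to 0.11, adjusted p = 0.814). For Cxcl14 these intervals reach no further than 0.32 on either side of 0, in either fraction.

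Cxcl12 binds Cxcr4 and the scavenging receptor Ackr3 and is known as a product of endothelial, leptomeningeal and mural cells. It lay on the lysate side, with 16.1 to 21.5 CPM in control inputs, 14.7 to 18.6 CPM in PMCA inputs and far less in IP. Control IP held 2.17, 1.80, 2.83 and 2.03 CPM and PMCA IP 2.80, 3.26, 3.12 and 5.76 CPM. IP was 8.35-fold below input in control mice (log2 fold -3.06, SE 0.15, adjusted p = 1.71e-08) and 4.74-fold below it in PMCA mice (-2.24, SE 0.20, adjusted p = 2.49e-06).

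The treatment effect on Cxcl12 in IP was 0.71 (SE 0.23, 95% interval 0.20 to 1.23) and missed the threshold (adjusted p = 0.0557). The groups overlapped in the control 3 and PMCA 1 libraries, and PMCA 4 was highest. Without PMCA 4 the value was 0.49 (adjusted p = 0.0706). Beside it, 4 of 8 endothelial markers passed as higher in PMCA IP, with a median log2 fold of 0.72, and their summed level was 8.56 to 10.1 CPM in control IP and 11.5 to 17.2 CPM in PMCA IP, highest in PMCA 4. Of all 15748 genes tested in IP, 1503 passed as higher and 1585 as lower. Of 7 tested mural markers 2 were higher and 2 lower (median -0.55, although their summed level was 76.1 to 85.9 CPM in control IP and 91.2 to 103 CPM in PMCA IP), and of 6 tested leptomeningeal markers 3 were higher and 1 lower (median 0.65, summed 113.7 to 149 and 90.8 to 125 CPM). The part of these lists in the Cxcl12 value was not tested. Cxcr4 was higher in control IP than in control input (log2 fold 1.80, SE 0.19, adjusted p = 6.52e-06), as was Ackr3 (0.61, SE 0.14, adjusted p = 0.00184), and neither passed between treatments in IP (-0.56 and -0.29, adjusted p = 0.0894 and 0.0889).

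Ccl2 attracts monocytes through Ccr2 and varied more between mice than between treatments. On the log2 CPM scale control IP held 2.65, 3.70, 4.15 and 4.02 and PMCA IP 3.04, 2.61, 3.49 and 4.42. Inputs held 1.07, 1.77, 1.96 and 2.26 in control mice and 1.22, 1.32, 1.54 and 2.40 in PMCA mice. The treatments overlapped in both fractions, with a log2 fold of -0.24 in IP (95% interval -1.13 to 0.66, adjusted p = 0.710) and -0.14 in input (95% interval -0.78 to 0.49, adjusted p = 0.824). These intervals are wide, so a change of about the size of 1 log2 unit downwards in IP cannot be told from none.

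What held for Ccl2 in every mouse was its place on the precipitate side. IP minus input was 1.58, 1.93, 2.19 and 1.76 in control mice and 1.82, 1.29, 1.96 and 2.02 in PMCA mice. The log2 folds were 1.87 (SE 0.33, adjusted p = 0.000349) and 1.77 (SE 0.37, adjusted p = 0.00140), with no overlap. Its relatives Ccl7 and Ccl12, which share its receptor Ccr2, are named here after their values were seen. Ccl7 was higher in control IP than in control input (1.03, SE 0.37, adjusted p = 0.0261), whereas Ccl12 was far lower (-6.98, SE 0.54, adjusted p = 5.52e-07), with 260 to 484 reads in a control input and 1 to 10 in a control IP. Reads shared by these similar genes may have been counted for either; the sources used here do not say how multiply mapped reads were handled.

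Ccl3, Ccl4 and Ccl5 attract monocytes and T cells and are textbook products of activated microglia, macrophages and T cells. Their genes lie with Ccl6 and Ccl9 on chromosome 11 (GRCm38.p6), and the annotated spans of Ccl3 (83647843 to 83649378) and Ccl4 (83648624 to 83664683) overlap by 755 bases. The libraries were stranded, but the sources do not say whether counting used the strand, so reads in that overlap are uncertain.

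Ccl3 rose in the lysate of PMCA mice. Control inputs had 23, 32, 28 and 46 reads and PMCA inputs 80, 93, 101 and 109 reads, so the groups did not overlap. Their means were -0.35 ± 0.35 and 1.20 ± 0.14 log2 CPM (SD, n = 4), a log2 fold of 1.55 (SE 0.20, 95% interval 1.11 to 1.99, adjusted p = 0.0147). Ccl4 rose beside it. It had 27, 39, 32 and 53 reads in control inputs and 63, 97, 94 and 96 in PMCA inputs, again without overlap (log2 fold 1.18, SE 0.21, 95% interval 0.73 to 1.64, adjusted p = 0.0434). Within the lower animal numbers the differences were 1.61 for Ccl3 and 1.23 for Ccl4 (2 PMCA and 3 control mice), and within the higher numbers 1.22 and 0.87 (2 PMCA mice and control 4, placed by its title).

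The size of these rises was steady but their calls were not. With no filter on low genes the adjusted p became 0.0505 for Ccl3 and 0.0907 for Ccl4. Leaving out control 1, control 3, PMCA 1, PMCA 2 or PMCA 3 took Ccl3 past the threshold (adjusted p = 0.0518, 0.0596, 0.0685, 0.0640 and 0.0728 in turn), with values from 1.45 to 1.69 over all 8 omissions. For Ccl4 the same 5 omissions gave 0.0871, 0.126, 0.109, 0.133 and 0.159, control 2 gave 0.0907 and PMCA 4 gave 0.0739, with values from 1.08 to 1.31.

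**Figure D3:**
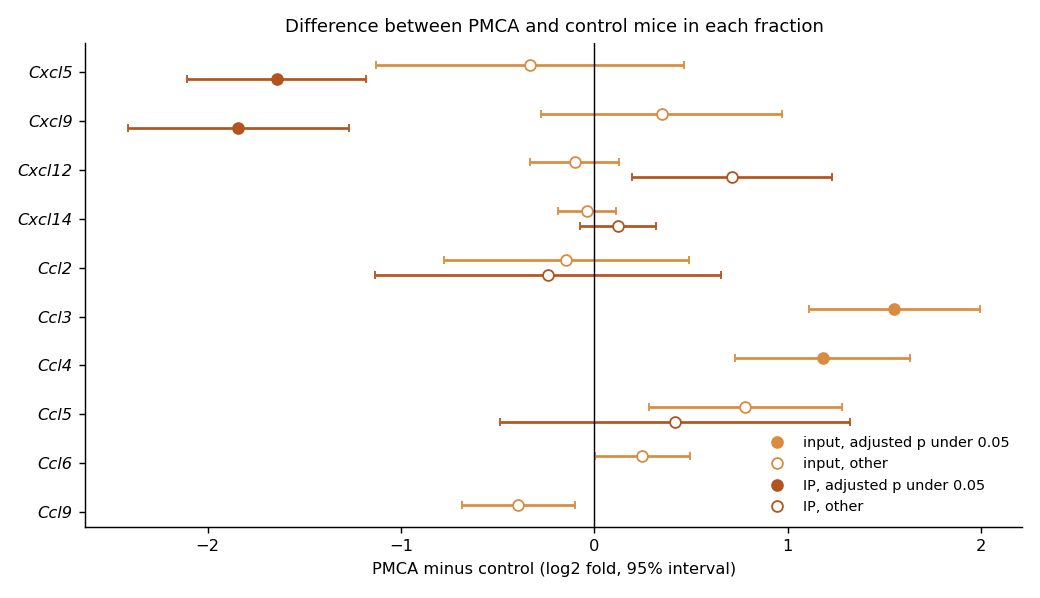
PMCA minus control, as a log2 fold with its 95% interval, for each chemokine in input and in IP; filled points have an adjusted p under 0.05. In IP the filled points are Cxcl5 and Cxcl9, both below 0, and in input Ccl3 and Ccl4, both above 0; Ccl3, Ccl4, Ccl6 and Ccl9 had too few IP reads for the test.

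Ccl5 moved in the same direction in the lysate without passing the test. Control inputs held 6.22, 6.93, 6.03 and 11.8 CPM and PMCA inputs 11.7, 9.38, 13.7 and 17.9 CPM. Control 4 reached into the PMCA range and the other 3 control mice lay below it. The log2 fold was 0.78 (SE 0.23, 95% interval 0.28 to 1.28, adjusted p = 0.122). It passed without control 4 (1.004, adjusted p = 0.00656), without both mice of high Xist (0.97, 0.0192), and with the set of animal numbers as a block (0.60, 0.00889), where control 4 was placed by its title.

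The markers of the cells known for these ligands stood as follows. Summed microglia markers were 1363 to 2075 CPM in control inputs, highest in control 4, and 1764 to 2181 CPM in PMCA inputs, and 0 of 12 passed between treatments (median log2 fold 0.29). Summed T cell and NK cell markers were 66.5 to 73.8 CPM and 75.1 to 94.3 CPM, and 0 of 10 passed (median 1.01). Summed macrophage and monocyte markers were 35.2 to 50.1 CPM and 42.4 to 50.3 CPM, and 0 of 8 tested passed. No defining marker of these 3 lists was at 0 in all inputs of a group. Their part in the Ccl3, Ccl4 and Ccl5 values was not tested.

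**Figure D4:**
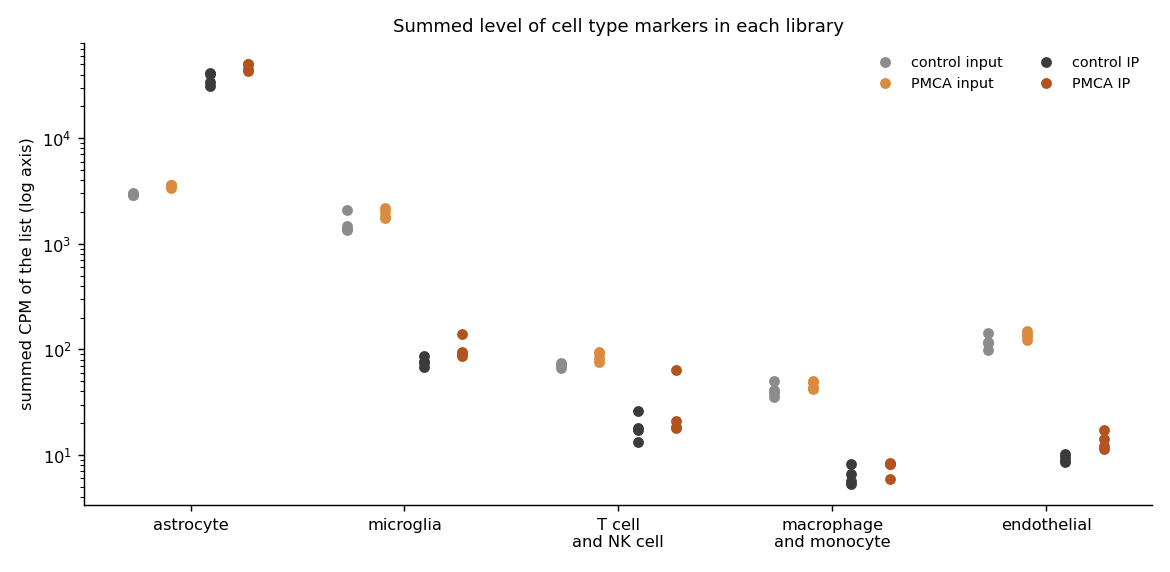
Summed CPM of 5 marker lists in each library, on a log axis, by group, with 1 point per mouse. Astrocyte markers are higher in IP than in input, the other 4 lists are lower, and PMCA 4 has the highest T cell and NK cell sum among IP libraries, at 64.3 CPM.

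In IP these 3 ligands were depleted. Ccl5 was 4.15-fold lower in IP than in input in control mice (log2 fold -2.05, SE 0.34, adjusted p = 0.000207) and 5.34-fold lower in PMCA mice (-2.42, SE 0.32, adjusted p = 5.28e-05). Its IP libraries held 0.908, 2.08, 1.79 and 3.04 CPM in control mice and 1.71, 1.55, 2.75 and 4.50 CPM in PMCA mice. They overlapped, with a log2 fold of 0.42 (SE 0.41, adjusted p = 0.500) that moved to 0.094 without control 1, 0.12 without PMCA 4, 0.63 without PMCA 2 and 0.67 without control 4, and PMCA 4, which had the highest T cell and NK cell marker sum, was highest.

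Ccl3 was nearly absent from control IP, with 1, 0, 1 and 0 reads, and had 7, 5, 17 and 14 reads in PMCA IP. The groups did not overlap, and an exact two-sided permutation test gave p = 0.0286, the smallest that 4 against 4 libraries allow. In pooled CPM, PMCA IP was 22.3 times control IP, with a 95% counting interval of 5.80 to 190 that covers counting error alone. Without the filter the fit gave an adjusted p of 0.0127. In control mice Ccl3 stood 77.6 times lower in IP than in input (counting interval 21.0 to 647), and in PMCA mice its log2 fold between them was -3.45 (SE 0.34, adjusted p = 5.05e-06). The difference of the treatment effect between the fractions did not pass (2.60, SE 0.72, adjusted p = 0.0769); it was 0.73 with a prior count of 2 (adjusted p = 0.409). Of 12 microglia markers, 5 passed as higher in PMCA IP (median log2 fold 0.85), where 1503 of all 15748 genes tested passed as higher. Their summed levels were 67.3 to 86.7 CPM in control IP and 86.0, 92.5, 94.7 and 138.5 CPM in PMCA 1 to 4, so the highest rests on PMCA 4. No microglia marker was at 0 in all libraries of a group. Their part in the Ccl3 reads was not tested.

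Ccl4 had 2, 3, 2 and 1 reads in control IP and 3, 4, 6 and 3 in PMCA IP. The ratio was 2.07 (95% counting interval 0.836 to 5.59; exact permutation p = 0.0571), which does not separate the treatments. In control mice its pooled level was 22.7 times lower in IP than in input (11.2 to 53.5), and in PMCA mice 24.6 times lower (14.9 to 43.5).

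Ccl6 and Ccl9 are ligands of Ccr1 made mainly by myeloid cells, and their genes lie 9.249 kb apart on chromosome 11 (Ccl9 at 83572917 to 83578636, Ccl6 at 83587886 to 83593087). Both had far fewer reads in IP than in input. Ccl6 had 116 to 171 reads in a control input and 153 to 189 in a PMCA input, and 1 to 9 reads in any IP library. Ccl9 had 106 to 158 reads in a control input, 87 to 111 in a PMCA input and 0 to 6 in any IP library. In pooled CPM, IP was 38.9 times (24.1 to 67.3) below input for Ccl6 and 61.7 times (33.3 to 129) for Ccl9 in control mice, and 44.3 times (27.5 to 76.6) and 34.7 times (20.1 to 65.8) in PMCA mice. As members of a family of similar sequence, both are uncertain to the extent that shared reads were counted for 1 of them.

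Between treatments the pair did not change beyond the test. In input Ccl6 had a log2 fold of 0.25 (SE 0.11, adjusted p = 0.256) and Ccl9 one of -0.39 (SE 0.13, adjusted p = 0.163). For Ccl9 all 4 PMCA inputs, at 2.43, 2.42, 2.14 and 2.67 CPM, lay below all 4 control inputs, at 2.92, 3.42, 2.81 and 3.55 CPM, but the difference did not pass. In IP there were 17 reads of Ccl6 in each treatment (exact permutation p = 0.914) and 10 reads of Ccl9 in control against 13 in PMCA mice (exact permutation p = 0.657), so the depth shows no difference for either.

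Over all members, the split between the fractions was wide in control mice: 10 of 10 passed, 4 higher and 6 lower, where 39.1% of 16072 genes passed as higher and 38.4% as lower. In PMCA mice 9 of 10 passed, 2 higher and 7 lower, where 37.4% of 16345 genes passed as higher and 39.3% as lower. In control mice Ccl3, Ccl4, Ccl6 and Ccl9 met the filter on low reads through their inputs alone, so a call of higher in IP was not open to them. The same held for Ccl4, Ccl6 and Ccl9 in PMCA mice, where Ccl3 also needed its inputs. The medians of the members were -2.56 and -2.33 log2, beside 0.00 and -0.04 over all genes tested. The treatment and fraction comparisons share libraries, so their values are not independent of each other.

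The other chemokine ligands of the mouse were set beside the members. Of 30 listed, 24 were in the files and 12 were tested in IP. Of the 12, 0 were higher and 2 were lower in PMCA mice, where 10.1% of all 15748 genes tested passed as lower. The 2 lower ligands were Cxcl1, given above, and Ccl17, a ligand of Ccr4 (log2 fold -1.37, SE 0.38, adjusted p = 0.0329). Ccl17 went from 13 to 21 reads in control IP to 4 to 10 in PMCA IP. Neither ligand would have met the filter on low reads without control IP, the higher group. The direction of these calls is therefore not independent of the filter. In input 0 of 16 passed (limma) between treatments. In control mice 3 of 14 were higher and 9 lower in IP than in input, with the largest differences in Ccl12, Xcl1 (-5.13) and Cxcl13 (-4.04). These ligands would not have met the filter on low reads without their inputs, the higher group. Over all 16072 genes tested there, 39.1% passed as higher and 38.4% as lower.

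Chemokine receptors were mostly on the lysate side. In control mice 13 of 18 tested were lower in IP than in input, among them Cx3cr1 (-5.42) and Ccr2 (-4.98), and 3 were higher. Of all 16072 genes tested there, 38.4% passed as lower and 39.1% as higher. Between treatments in IP, 3 of 13 passed, all higher in PMCA mice, among them Cxcr6 (1.63, SE 0.39, adjusted p = 0.0191) and Ccr2 (2.15, SE 0.66, adjusted p = 0.0447). Over all 15748 genes tested in IP, 19.6% passed in either direction, and 1503 genes passed as higher. Ccr2 had 2 to 12 reads in control IP and 10 to 44 in PMCA IP, and Cxcr6 had 5 to 17 and 21 to 45. Neither would have met the filter on low reads without PMCA IP, the higher group. The direction of these calls is therefore not independent of the filter. Between fractions in control mice, Ccr2 likewise needed its inputs to meet it. Between treatments in input 0 of 18 passed. These receptors are known from myeloid cells and T cells. The microglia marker sums given above overlapped between treatments in IP (control 4 at 86.7 CPM, PMCA 1 at 86.0 CPM). Summed T cell and NK cell markers were 13.4 to 26.2 CPM in control IP and 18.1 to 64.3 CPM in PMCA IP. Summed macrophage and monocyte markers, which include Ccr2, were 5.26 to 8.23 CPM and 5.94 to 8.43 CPM. The part of these lists in the receptor values was not tested.

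Among cytokines that induce chemokines and their receptors, 5 of 13 tested genes passed between treatments in IP, 4 higher and 1 lower. Of all 15748 genes tested, 19.6% passed, 1503 genes as higher and 1585 as lower. Il1r1, the signalling receptor of interleukin-1, rose by 0.69 (SE 0.15, adjusted p = 0.0120), as did Tnfrsf1b (1.33, adjusted p = 0.0325) and Il6ra (0.93, adjusted p = 0.0444), and Il17ra fell (-0.60, SE 0.15, adjusted p = 0.0194). Between fractions in control mice, 7 of 15 tested genes of this list were higher in IP and 6 lower. Over all 16072 genes tested there, 39.1% passed as higher and 38.4% as lower. The largest differences were those of the cytokines Il1a, Il1b and Tnf, lower in control IP than in control input (-4.65, -3.61 and -3.60). Il1b had 2 to 3 reads and Tnf 1 to 9 in a control IP library, so both met the filter on low reads through input alone.

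For each member, the 2 genes nearest in pattern were found over the 16 libraries among 16673 genes, as the smallest root-mean-square difference between log2 levels after the mean of each gene was taken off. Cxcl14 had the closest neighbours, Sfxn5 at 0.083 log2 and Capn2 at 0.085. The neighbours of Cxcl9 were Wfikkn1 (0.45) and Grem1 (0.46), and those of Cxcl5 were Pmaip1 (0.33) and Eif4ebp1 (0.34). Ccl2 ran nearest to Tnfrsf12a (0.34) and Maff (0.37), Cxcl12 to E130102H24Rik (0.25) and AI450353 (0.29), and Ccl5 to Ets1 (0.28) and Gsg2 (0.30). The members with few reads in IP had Lag3 (0.43) and Mrc1 (0.51) for Ccl4, Emcn (0.57) and Selplg (0.62) for Ccl6, Ms4a6d (0.63) and Ly86 (0.82) for Ccl9, and Ms4a1 (0.78) and Rgs1 (0.86) for Ccl3.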

How the data were processed

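The submitters' processing notes name STAR, HTSeq, edgeR, limma and mm10. The sources used here do not give versions, roles, strand use or the handling of multiply mapped reads. The authors deposited log2 CPM. Undoing the log2 and the prior count of 0.25 gave whole reads for every gene and library, within a tolerance of 0.001. Differences were tested with limma 3.58.1 (R 4.3.3) on the deposited log2 values, with a mean-variance trend, two-sided, and Benjamini-Hochberg adjustment over all genes tested, threshold 0.05. The main fits had no term for the animal, also where the IP and input of the same mice were compared. The test took genes that reached 10 reads, at the median effective library size, in 4 or more libraries and 15 reads in total. The script was tested on simulated data. All 10 members are named; list genes are the up to 4 of lowest adjusted p between treatments and the up to 3 largest differences between fractions in control mice, each past the threshold. Members, lists and the naming rule were chosen with earlier results of these data known. The input and IP of a mouse share an animal by their labels, and their deviations from the group means correlated with r from 0.129 to 0.381 (8 pairs, 16164 genes), against -0.223 to 0.0818 between different mice (24 pairs). Libraries of a group differed by more than sampling noise (chi-square per degree of freedom 4.74 to 103). Among PMCA IP libraries it was 84.3 to 103 for pairs with PMCA 4 and 8.77 to 24.0 for the other pairs. Among control IP libraries it was 12.7 to 79.7. Counting intervals (95%, exact binomial) cover counting error only. Alternatives were other filters, a prior count of 2, total reads, voom weights, blocks for the animal and for the set of animal numbers, and leaving out each mouse or both mice of high Xist. Some results of the receptor and signalling lists are not reported here.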

Additional observations from a re-analysis of the deposited data

Results flagged for a closer look

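The difference of the treatment effect between IP and input was -2.19 for Cxcl9 (SE 0.43, adjusted p = 0.0192, limma), the only member for which this difference passed the test. On the deposited scaling its IP minus input lay above 0 in 4 of 4 control mice and below 0 in 4 of 4 PMCA mice; on total reads control 4 lay at -0.18, leaving 3 of 4 control mice above 0.

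Among the PMCA inputs, PMCA 1 stood apart for Cxcl14, at 5.69 log2 CPM against 5.44, 5.46 and 5.45 in the other 3 mice. Its gap to the nearest mouse was 0.926 of the range of the group. Of 40 sets of 4 libraries examined in this way, 1 stood out, and chance gives about 1 in 20.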

How the results depend on the processing

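Of 46 member results with alternatives, 41 stayed on the same side of the threshold under every alternative run, 5 changed their call and 0 called results reversed. The changed calls were Cxcl9 between fractions in control mice, its difference between the fractions, and Ccl3, Ccl4 and Ccl5 between treatments in input, with values given above. In IP, Cxcl5 and Cxcl9 passed between treatments under every alternative run, and with no filter Ccl3 also passed, as higher.

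Among all genes, leaving out both mice of high Xist gave 1240 calls between treatments in IP (3088 with all mice), 490 in input (72) and 43 for the difference between the fractions (339), where the members' count became 0. The set of animal numbers as a block, with control 4 placed by its title, gave 868 in input and 549 for the difference. No filter on low genes left 27 in input, with 0 members. Leaving out 1 mouse gave 1702 to 3606 calls in IP, 4 to 1352 in input (0 to 3 members), and 23 to 436 for the difference (0 to 1 member). The causes were not tested.

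With the animal as a replicate block, 466 genes passed for the difference, and the members' calls stayed at 1 for it, at 10 between fractions in control mice and at 9 in PMCA mice. With total reads in place of the deposited scaling, the median gene shifted to -0.28 and -0.35 log2 between fractions in control and PMCA mice, and 4493 of 12882 and 4294 of 13192 calls were higher, where the deposited scaling gave 6285 of 12457 and 6121 of 12551. For the difference between the fractions, 120 of 356 calls were higher under total reads and 162 of 339 under the deposited scaling. Of the members, Cxcl9 in control mice lost its call under total reads. A prior count of 2 moved the fraction difference of Ccl3 in control mice from -6.05 to -3.93, since members near 0 reads rest on that choice.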
